A study of Drosophila melanogaster with 40 samples.

Results

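The mitochondrial ribosomal protein family comprised the 71 genes whose symbols in the count table begin with mRpL or mRpS followed by a number, out of 17784 features (17558 genes and 226 transposable element families). They were chosen by name alone, with no measured value. By name, 47 belong to the large ribosomal subunit and 24 to the small one, although in mammals the counterparts of mRpS30 and mRpS18A sit in the large subunit. All 71 passed the filter on low counts, as did 11477 features in all. The 2 small-subunit genes with classical names, tko and bonsai, do not match the naming rule and are given beside the family.

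RNA was measured by poly-A RNA-seq in 40 pools of 13 to 21 heads of 10-day-old wild-type male Drosophila melanogaster in an Oregon Red background. The flies received vehicle (0.2% DMSO), 10 uM 2-AAPA or 100 uM mitoQ, either acutely, for the last 24 h, or chronically, for 10 days. Acute feeding was sampled with 7 pools for DMSO, 6 for 2-AAPA and 7 for mitoQ, and chronic feeding with 7 for DMSO, 7 for 2-AAPA and 6 for mitoQ. Per the methods, acutely fed flies lived on cornmeal-molasses food before being moved to the instant drug medium, while chronically fed flies lived on the instant medium throughout, so duration of drug, vehicle and food cannot be told apart between schedules. 2-AAPA is an inhibitor of glutathione reductase, and mitoQ is a ubiquinone analog directed to mitochondria by a charged lipophilic cation. The labels give DMSO as the common vehicle, the methods list ethanol as the solvent of mitoQ, and no group fed ethanol alone was analysed here.

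Mitochondrial ribosomes translate the few messages encoded by mitochondrial DNA, all of which specify core subunits of the respiratory chain and ATP synthase. Their RNAs are encoded in the mitochondrial genome, while all of their proteins are encoded in the nucleus, made on cytosolic ribosomes and imported. Some of the proteins descend from bacterial ribosomal proteins, and others were added during the evolution of mitochondria. In Drosophila, tko, the small-subunit protein S12, is known for the bang sensitivity of its mutants, and fly heads, rich in neurons and photoreceptors, have a high demand for oxidative phosphorylation.

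The libraries held 24318573 to 30104079 counts. Markers of neurons (2000 to 4560 CPM, counts scaled to the size of the library, summed over the list), photoreceptors (54900 to 81500 CPM), glia (766 to 1410 CPM) and fat body (613 to 7030 CPM) were present in every library, as heads should show. Chronic DMSO replicate 7 stood apart: summed testis markers reached 1790 CPM against 3.91 to 8.96 CPM elsewhere, and accessory gland markers reached 572 CPM against 0.0685 to 0.692 CPM. The summed level of the 71 genes in that library lay within the range of the other 6 chronic DMSO libraries. Single members could lie outside it, such as mRpL37 at 53.7 CPM against 38.1 to 46.1 CPM. Acute DMSO replicate 5 had the largest share of cytosolic ribosomal RNA (8.89%), closely followed by acute DMSO replicate 3 (8.79%), and chronic DMSO replicate 4 the smallest (0.262%). In bulk tissue, fewer cells of a type and less RNA per cell cannot be told apart. The labels do not say whether samples of a group came from separate cultures, so p-values measure the spread between these pools.

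Levels of the family were moderate and uniform. Mean levels ran from 9.36 to 87.2 CPM, with a median of 23.1 CPM, and the lowest single count was 6 reads. Levels per length, in CPM per kilobase of merged exon, spanned 6.45-fold, and 66 of 71 genes lay within 2-fold of the family median of 27.4. The medians per kilobase were 27.5 for the large subunit (10.7 to 69.0) and 25.6 for the small subunit (13.9 to 67.5), so that the subunits overlapped almost completely. In the plot of levels per kilobase the genes form a continuous slope with both subunits mixed.

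**Figure D1:**
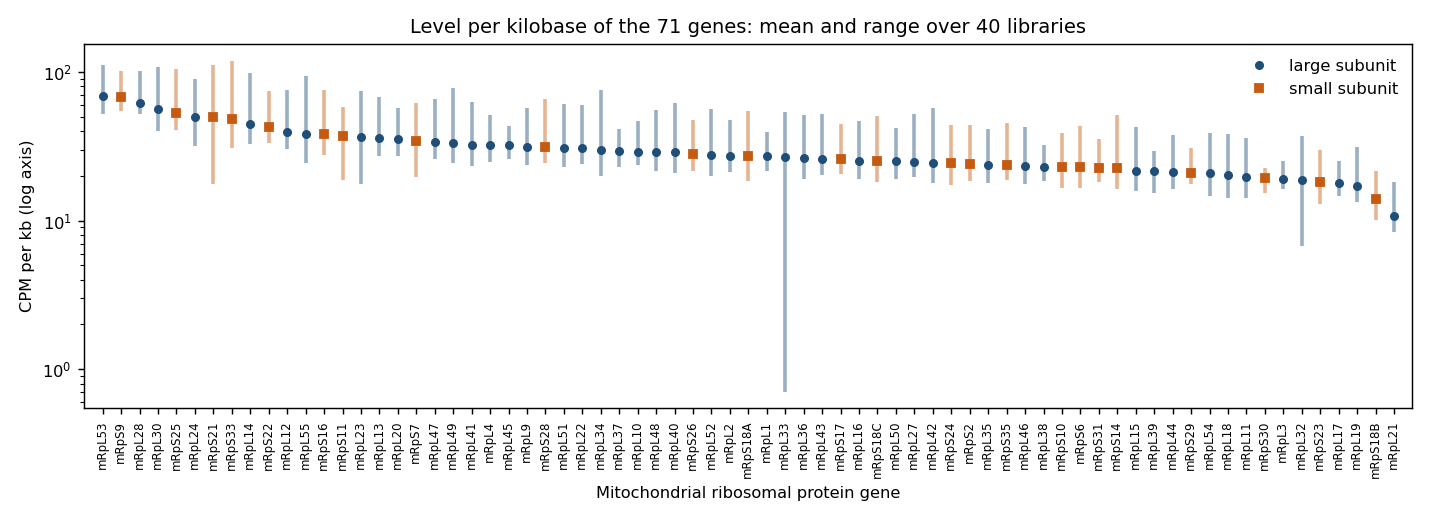
Mean level per kilobase (CPM per kb, log axis) of each of the 71 genes over 40 libraries, ordered from high to low, with vertical lines from the lowest to the highest library and colors for the subunits. Means run from 69.0 for mRpL53 to 10.7 for mRpL21, and the line of mRpL33 reaches far lower than any other.

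The 3 highest levels per kilobase belonged to mRpL53 (69.0), mRpS9 (67.5) and mRpL28 (61.8), and the 3 lowest to mRpL19 (17), mRpS18B (13.9) and mRpL21 (10.7). mRpS9 and mRpL28 correspond to bacterial proteins S9 and L28, while mRpL53 has no bacterial counterpart. mRpL53 needs caution, because in the BDGP6 annotation all 829 of its exonic bases (2R: 13954195 to 13955664) are shared with CG33155 on the same strand, and its reads cannot be separated from those of that gene. A pair of other genes share exonic bases with a neighbor on their own strand, mRpL13 with CG10602 and mRpS14 with CG32533, and 41 overlap a gene on the opposite strand, among them mRpS9 with ArgRS-m over 325 bases. The strand setting of the counting is not stated in the sources used here. The other 29 genes, mRpL37, mRpL33 and mRpS7 among them, overlap no annotated exon of another gene.

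In most libraries the family moved largely together. For each gene the deviation of its log2 level from its mean over the 40 libraries was taken, and the median deviation over the 71 genes is called the family level. In acute DMSO replicate 5 the family level was 0.89, and 71 of 71 genes were above their own means. In acute 2-AAPA replicate 5 it was -0.30, and 0 genes were above. In 24 of 40 libraries at least 60 of the 71 genes lay on the same side of their means, with 10 libraries high and 14 low, and high and low libraries occurred in acute and chronic samples alike.

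The family level ranged from -0.20 to 0.89 in acute DMSO (median 0.04), from -0.30 to 0.34 in acute 2-AAPA (median -0.215), and from -0.24 to 0.29 in acute mitoQ (median 0.01). It ranged from -0.10 to 0.22 in chronic DMSO (median -0.01), from -0.23 to 0.20 in chronic 2-AAPA (median 0.00), and from -0.18 to 0.15 in chronic mitoQ (median -0.07). All 6 groups overlapped, and the groups differed less than the libraries within them. In summed level, acute DMSO replicate 5 held 3209 CPM of the family, above the 1483 to 2224 CPM of the other 19 acute libraries and the 1551 to 2123 CPM of the 20 chronic ones. Large and small subunits were inseparable in this respect, with medians that differed by at most 0.07 on the log2 scale in any library.

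**Figure D2:**
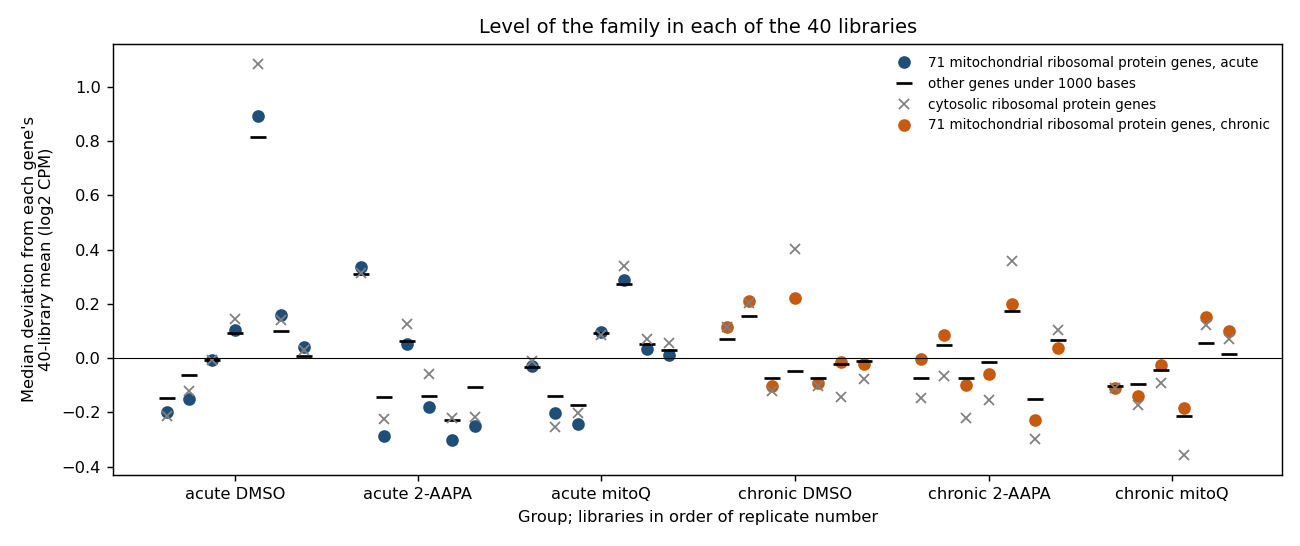
Median deviation (log2 CPM) of the 71 genes from their 40-library means in each library, by group, with the same measure for 858 other genes shorter than 1000 bases (bars) and for cytosolic ribosomal protein genes (crosses). The family level follows both other gene groups in most libraries, with chronic DMSO replicate 4 apart from the short genes, and acute DMSO replicate 5, at 0.89, lies above all others.

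Other gene groups moved with the family level. In acute DMSO replicate 5, the median deviation was 1.09 for genes of cytosolic ribosomal proteins, 0.93 for nuclear genes of the respiratory chain and ATP synthase, and 0.82 for 858 other genes shorter than 1000 bases. The family is itself composed of short genes, with a median length of 783 bases (327 to 2078) against 1972 for all features tested, and 50 of 71 are under 1000 bases. The family level and the level of the other short genes had the same sign in 39 of 40 libraries, and they differed by a median of 0.03 and at most 0.27, in chronic DMSO replicate 4. Within the family, acute DMSO replicate 5 raised the 6 genes under 500 bases by a median of 1.26, the 44 genes of 500 bases to under 1000 by 0.96, and the 21 longer genes by 0.66. Across all genes that library had the steepest decrease of level with gene length, at -0.31 on the log2 scale per doubling of length. The part of gene length, and of the ribosomal RNA share, in the family level was not tested.

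Subtracting the median of the other 70 genes removed most of the spread of a typical member. The standard deviation (SD) over 40 libraries had a median of 0.25 on the log2 scale before and 0.11 after, and it became smaller for 67 of 71 genes. Among the 5931 features in the same range of mean level, subtraction of the family level made the SD smaller for 22.3%, and the median went from 0.20 to 0.28. These features were matched by level and not by length. The same share for other short genes, which followed the family level, is not given here. mRpL47, which is related to bacterial L29, followed the family most closely, with an SD of 0.07 after subtraction. The 4 genes whose SD did not shrink were mRpL33, mRpL37, mRpL45 and mRpS30, which were singled out after their values were seen, apart from mRpL37 and mRpL45.

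**Figure D3:**
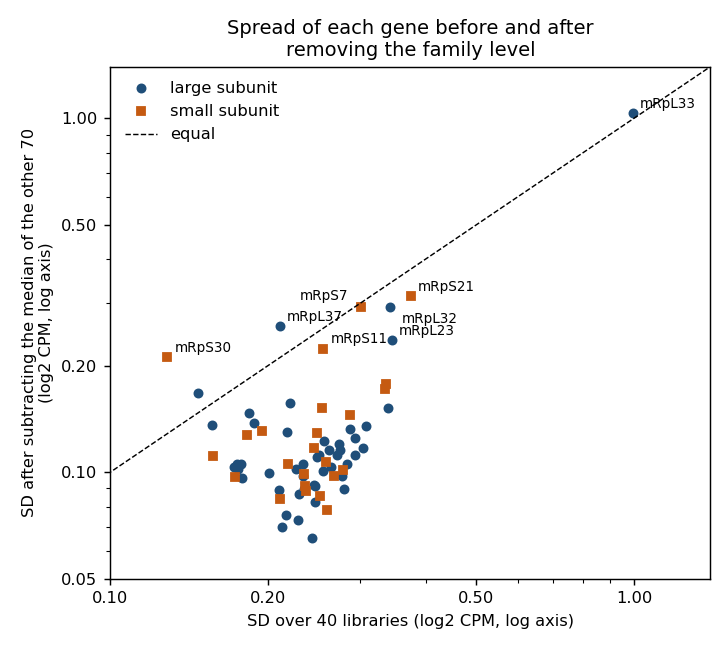
Standard deviation of each of the 71 genes over 40 libraries (log2 CPM, log axes) before (x axis) and after (y axis) subtracting the median deviation of the other 70 genes, by subunit. Most genes fall far below the dashed line of equality, and mRpL33, mRpL37, mRpL45 and mRpS30 lie above it.

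mRpL33, which corresponds to bacterial protein L33, was the most variable gene, with an SD of 0.99 before and 1.03 after subtraction. Its level ranged from 2.57 to 18.6 CPM in acute DMSO, from 2.73 to 14.8 CPM in acute 2-AAPA and from 5.88 to 12.5 CPM in acute mitoQ. In chronic samples it ranged from 0.247 to 13.1 CPM with DMSO, from 8.81 to 13.0 CPM with 2-AAPA and from 2.37 to 10.5 CPM with mitoQ. The 5 libraries under 5 CPM fell in 4 of the 6 groups, and all 6 groups overlapped. The lowest, chronic DMSO replicate 4, had 6 reads of mRpL33.

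The gene whose departures from the family most resembled those of mRpL33 was mRpS7, a small-subunit protein that corresponds to bacterial S7. Across 40 libraries the departures of both genes from the median of the others had a Pearson correlation of 0.89, or 0.87 without chronic DMSO replicate 4, given as a description since the points share libraries and depth. mRpS7 ranged from 18 to 56.8 CPM. mRpL33 lies on the X chromosome (4321764 to 4322231, minus strand) and mRpS7 on 2L (10386662 to 10387652, plus strand), so they are not neighbors. Neither differed between schedules, with log2 fold changes of -0.06 (standard error, SE, 0.24, adjusted p = 0.909) for mRpL33 and 0.00 (SE 0.09, adjusted p = 0.998) for mRpS7 by edgeR.

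Chronic DMSO replicate 4 was discordant within the family. Its family level was 0.22, yet 22 of 71 genes were below their means. These were 4 of the 6 genes under 500 bases, 15 of the 44 of 500 bases to under 1000, and 3 of the 21 longer ones. The median deviation was -0.24 in the shortest class and 0.23 in both other classes. mRpL33 departed from the other members by -4.91 there, mRpS21 by -1.65, mRpL32 by -1.65, mRpL23 by -1.22 and mRpS7 by -1.0 on the log2 scale. Across all genes this library also had the steepest increase of level with gene length, by 0.15 on the log2 scale per doubling of length. The part of gene length in these departures was not tested.

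mRpS30 and mRpL45 were the steadiest genes, with SDs of 0.13 and 0.15 before subtraction. mRpS30, which has no bacterial counterpart, ranged from 31.8 to 47.1 CPM over all 40 libraries. mRpL45, which in mammals contacts the inner membrane near the exit of the peptide tunnel, ranged from 32.7 to 54.5 CPM. In acute DMSO replicate 5, where the family level rose to its highest value, mRpS30 was at 40.75 CPM and mRpL45 at 44.3 CPM. Both values lay within the range of the rest of that group. They are among the longer genes of the family, at 2078 and 1268 bases.

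The comparison of chronic with acute feeding asked whether the family differed between schedules, with drug held as a covariate. The schedules differed in food and in duration of vehicle as well as of drug. The large-subunit gene mRpL37 was the only member past the threshold, and it was higher after chronic feeding. edgeR called 1 of 71 members (an adjusted p under 0.05) against 8.64% of all features tested, 992 of 11477. At an unadjusted p under 0.05 the count was also 1 of 71, against 22.3% of all features. The median log2 fold change of the 71 genes was -0.02, against 0.01 for all features, and 54 of 71 were below 0, against 46.9% of all features. Without acute DMSO replicate 5, a library left out after the data were seen, the median was 0.03. In that fit 13 of 71 were below 0, against 43.0% of all features. Without acute 2-AAPA replicate 1 the median was 0.003 and 34 of 71 were below 0, and the share of all features is not given here.

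mRpL37, a large-subunit protein without bacterial counterpart that in mammals is related in sequence to the counterpart of mRpS30, lies on 3R (10782563 to 10784092, minus strand) and has 4 exons. After acute feeding its lowest, median and highest levels were 34.2, 37.5 and 47.6 CPM with DMSO, 31.0, 35.3 and 44.5 CPM with 2-AAPA, and 31.7, 38.5 and 42.6 CPM with mitoQ. After chronic feeding they were 38.1, 43.0 and 53.7 CPM with DMSO, 32.9, 41.7 and 55.9 CPM with 2-AAPA, and 32.1, 41.6 and 47.8 CPM with mitoQ. The medians were higher after chronic feeding in each drug arm, while the acute and chronic libraries overlapped in all of them, and 16 of 20 chronic libraries exceeded the acute median.

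The rise of mRpL37 was 1.14-fold (log2 fold change 0.19, SE 0.06, adjusted p = 0.0402 by edgeR). By arm the log2 fold change was 0.21 with DMSO (SE 0.10, adjusted p = 0.339), 0.25 with 2-AAPA (SE 0.11, adjusted p = 0.255) and 0.12 with mitoQ (SE 0.11, adjusted p = 0.998), none past the threshold alone. The call was marginal. When each of the 40 libraries was left out in turn, the log2 fold change stayed between 0.17 and 0.22, but the adjusted p ranged from 0.0167 to 0.0685 and the call was lost in 18 of 40 fits, for example at an adjusted p of 0.0521 without chronic DMSO replicate 7, the library with testis markers, in which mRpL37 was highest of its group. In relation to the other members, mRpL37 departed by -0.62 to 0.30 on the log2 scale in acute libraries (median -0.05) and by -0.47 to 0.53 in chronic ones (median 0.04), and 5 of 20 chronic libraries exceeded every acute one.

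**Figure D4:**
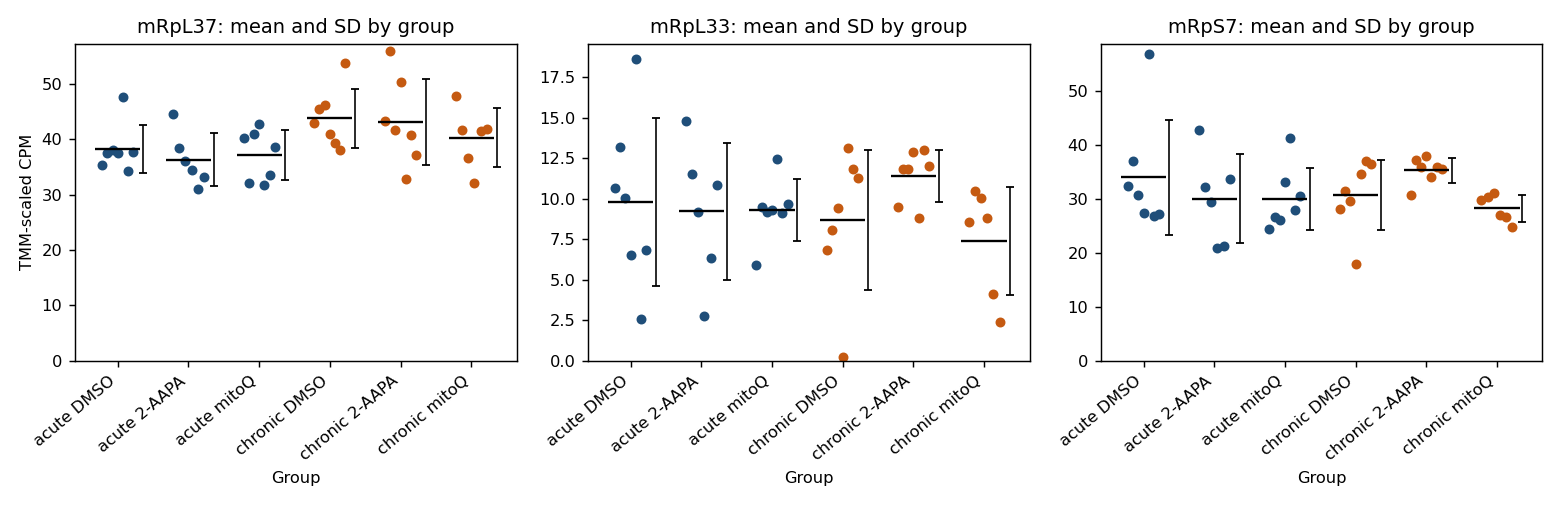
Level (TMM-scaled CPM) of mRpL37, mRpL33 and mRpS7 in each library of the 6 groups, with horizontal lines at group means and bars of 1 SD. mRpL37 sits slightly higher in the chronic groups, with medians of 41.6 to 43.0 CPM against 35.3 to 38.5 CPM, while mRpL33 and mRpS7 scatter within groups.

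The other members that ranked next were far from the threshold. Of those above 0, the smallest p-values belonged to mRpS6, mRpS14 and mRpS11, all related to bacterial small-subunit proteins of the same numbers. mRpS6 ranged from 10.3 to 27.0 CPM in acute and from 11.6 to 20.2 CPM in chronic libraries, with a log2 fold change of 0.07 (SE 0.09, adjusted p = 0.692). mRpS14 had a log2 fold change of 0.07 (SE 0.11, adjusted p = 0.754) and mRpS11 of 0.04 (SE 0.08, adjusted p = 0.842). The acute and chronic ranges overlapped for each of them.

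Of the members below 0, mRpL3 and mRpS26 had the smallest p-values. mRpL3, whose bacterial counterpart lies beside the peptidyl transferase center, ranged from 20.3 to 31.3 CPM in acute and from 20.2 to 27.6 CPM in chronic libraries, with a log2 fold change of -0.09 (SE 0.05, adjusted p = 0.292). mRpS26, which is specific to mitochondria, ranged from 18.8 to 39.2 CPM and from 17.7 to 28.6 CPM, with a log2 fold change of -0.12 (SE 0.07, adjusted p = 0.296). The acute and chronic libraries overlapped for both. mRpL46, also specific to mitochondria, gave -0.11 (SE 0.07, adjusted p = 0.378) and mRpL35, a counterpart of bacterial L35, gave -0.10 (SE 0.07, adjusted p = 0.420).

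A fit with the level of other short genes in each library as covariate, chosen after the data were seen, called more members. edgeR then called 9 of 71 between schedules (12.7%), against 12% of all features, and all 9 were higher after chronic feeding. mRpL37 (log2 fold change 0.21, SE 0.06, adjusted p = 0.0115), mRpS14 (0.19, SE 0.055, adjusted p = 0.0158) and mRpS6 (0.16, SE 0.04, adjusted p = 0.00855) led them, and mRpL30, mRpL51, mRpL52, mRpL11, mRpL55 and mRpS18C had log2 fold changes of 0.10 to 0.12. In the 2-AAPA arm the same covariate gave 2 calls, mRpS31 (0.16, SE 0.05) and mRpS33 (0.25, SE 0.06), 2.82% of members against 8.9% of all features. The share of members called was thus near the background between schedules and below it in the 2-AAPA arm. With this covariate the median between schedules turned to 0.06, with 8 of 71 below 0, against 42.6% of all features. At an unadjusted p under 0.05 there were 21 of 71 members, against 25.4% of all features. The medians of the DMSO and mitoQ arms turned to 0.04 and 0.06, with 17 and 14 of 71 below 0, against 45.8% and 51.4% of all features. In these arms 6 and 9 members had an unadjusted p under 0.05, against 17.1% and 5.98% of all features. The median of the 2-AAPA arm was 0.055.

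Within the vehicle arm, 0 of 71 members were called by edgeR between chronic and acute DMSO, against 5.11% of all features (1.2% without chronic DMSO replicate 7, the library with testis markers), and 0 passed an unadjusted p under 0.05, against 15.3%. The fold changes leaned down together, with a median of -0.13 and 68 of 71 below 0, against 48.6% of all features. Without acute DMSO replicate 5 the median was 0.045 and 20 of 71 were below 0, against 44.8% of all features. Within the 2-AAPA arm, edgeR called 0 of 71 (4.21% of all features) and 1 passed at an unadjusted p, mRpL37, against 14.4%. The median was 0.085 and 13 of 71 were below 0, against 44.4% of all features. Without acute 2-AAPA replicate 6 the median was 0.054, with 19 below 0, against 45.9% of all features. Within the mitoQ arm edgeR called 0 of 71 (0.157% of all features), 0 at an unadjusted p (5.21%), with a median of -0.02 and 49 of 71 below 0 (53.8%), and the smallest p belonged to mRpL21, at a log2 fold change of -0.13 (SE 0.12, adjusted p = 0.998). DESeq2 and limma called 0 members in each of the 3 arms, with 1, 2 and 0 (DESeq2) and 0, 1 and 0 (limma) at an unadjusted p under 0.05 in the DMSO, 2-AAPA and mitoQ arms.

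The drug comparison, with schedule held as a covariate, asked whether any of DMSO, 2-AAPA and mitoQ set the family apart. edgeR called 0 of 71 members, against 0.00871% of all features (1 of 11477), and 3 passed an unadjusted p under 0.05, against 8.19%. Against DMSO the median log2 fold change was -0.14 for 2-AAPA, with 69 of 71 below 0, against -0.01 and 54.9% for all features. For mitoQ it was -0.12, against -0.02 for all features, with 70 of 71 below 0. Without acute DMSO replicate 5 these medians were -0.06 and -0.05, with 57 and 54 of 71 below 0. The smallest p belonged to mRpL12, the protein of the flexible stalk that recruits translation factors. With DMSO its levels ranged from 27.2 to 55.5 CPM in acute and from 26.3 to 40.7 CPM in chronic libraries, with 2-AAPA from 22.2 to 37 CPM and from 23.7 to 30.2 CPM, and with mitoQ from 23.9 to 33.4 CPM and from 22.6 to 33.3 CPM. The drug groups overlapped, with log2 fold changes against DMSO of -0.22 for 2-AAPA and -0.20 for mitoQ (adjusted p = 0.579 by edgeR). DESeq2 and limma called 0 members, with 3 and 1 at an unadjusted p under 0.05. The highest level of mRpL12 was that of acute DMSO replicate 5. By edgeR 0 members passed an unadjusted p under 0.05 without that library (8.38% of all features) or without acute 2-AAPA replicate 6 (6.56%).

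The interaction asked whether the difference between schedules depended on the drug. edgeR called 0 of 71 members and 0.0% of all features, with 0 members at an unadjusted p under 0.05, against 6.13% of all features. The schedule difference with 2-AAPA less that with DMSO had a median of 0.23, with 4 of 71 below 0, against 0.01 and 47.5% for all features. With mitoQ the median was 0.09, against 0.001 for all features, with 14 of 71 below 0. Without acute DMSO replicate 5 these medians were 0.03 and -0.065, with 28 and 54 of 71 below 0. DESeq2 and limma called 0 members, with 0 at an unadjusted p. The smallest p belonged to mRpS31, a small-subunit protein specific to mitochondria (adjusted p = 0.958 by edgeR). Its medians were 29.5, 25.8 and 29.6 CPM after acute DMSO, 2-AAPA and mitoQ and 27.7, 29.4 and 27.0 CPM after chronic DMSO, 2-AAPA and mitoQ, with overlap between all groups.

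Of the drug comparisons within a schedule, acute 2-AAPA against acute DMSO showed the most uniform family shift. All 71 members were lower with 2-AAPA, against 51.1% of all features, with a median log2 fold change of -0.25 (-0.46 to -0.05) against -0.005 for all features. edgeR called 0 of 71 members, against 0.0261% of all features, and 21 passed an unadjusted p under 0.05, against 5.92%. DESeq2 called 0 with 17 at an unadjusted p (6.11% of all features), and limma called 0 with 8 (4.78%). The medians were -0.25 for the large and -0.27 for the small subunit.

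The shift was smaller without acute DMSO replicate 5. With that library left out the median was -0.07 and 67 of 71 members were lower, against 54.0% of all features. At an unadjusted p under 0.05 the count was 0, against 4.69% of all features. Leaving out any of the other 12 libraries of these groups gave medians from -0.365 to -0.215 and 0 calls. The count at an unadjusted p under 0.05 rose to 58 without acute 2-AAPA replicate 1, the library of that group with the highest family level (0.34), and to 46 and 40 without acute DMSO replicates 1 and 2. It fell to 11 without acute DMSO replicate 6 and to 2, 5, 3 and 4 without acute 2-AAPA replicates 2, 4, 5 and 6. Without acute 2-AAPA replicate 6 the share of all features was 3.27%, and the shares for the remaining fits are not given here. The members moved together, so these counts do not stand for independent genes. With all libraries kept, the short gene covariate gave a median of -0.04, with 61 of 71 lower, against 57.1% of all features. It left 2 at an unadjusted p under 0.05, against 5.48% of all features. The ribosomal RNA share as covariate gave a median of -0.25. In the same comparison, genes of cytosolic ribosomal proteins had a median log2 fold change of -0.24, with 80 of 81 below 0, and nuclear genes of the respiratory chain had -0.225, with 60 of 68 below 0, and both medians were closer to 0 without acute DMSO replicate 5, at -0.02 and -0.025.

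Summed photoreceptor and gut markers differed between acute 2-AAPA libraries of low and high family level. In the 4 libraries with a family level below 0 (replicates 2, 4, 5 and 6), summed photoreceptor markers were 64000 to 66200 CPM and gut markers 306 to 376 CPM. In acute DMSO they were 70600 to 78100 CPM and at most 271 CPM, and in acute 2-AAPA replicates 1 and 3 they were 75100 to 80300 CPM and 128 to 208 CPM. Those 4 libraries were thus below every acute DMSO library in photoreceptor markers and above each of them in gut markers. Their glia markers, at 984 to 1130 CPM, lay mostly above the 766 to 990 CPM of acute DMSO. Their fat body markers, at 2270 to 7030 CPM, overlapped with the 1550 to 4880 CPM of acute DMSO but reached higher. Their neuron, muscle, testis and accessory gland markers overlapped with acute DMSO. Within acute DMSO, libraries of the highest and the lowest family level had similar values of both markers. Replicate 5, at the highest family level (0.89), had the lowest photoreceptor (70600 CPM) and highest gut markers (271 CPM) of that group. Replicate 1, at the lowest family level of the group (-0.20), had 72300 CPM and 269 CPM. The part of these marker differences in the family shift was not tested.

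mRpS18B, a paralog of the bacterial S18 family, had the smallest p of the family in this comparison. Its levels were 11.5 to 18.6 CPM with acute DMSO (median 12.4) and 8.71 to 13.5 CPM with acute 2-AAPA (median 10.7). The groups overlapped, with a log2 fold change of -0.27 (SE 0.11, adjusted p = 0.839 by edgeR). mRpS26 gave -0.28 (SE 0.115), and mRpL53, whose reads are shared with CG33155, gave -0.26 (SE 0.12), each with an adjusted p of 0.839.

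Acute mitoQ was compared with the same 7 acute DMSO libraries, so both acute comparisons share their controls. edgeR called 0 of 71 members and 0.0% of all features, with 0 members at an unadjusted p under 0.05 (1.54%), and DESeq2 and limma called 0 members, with 0 at an unadjusted p. The median log2 fold change was -0.17 and 70 of 71 were below 0, against 51.9% of all features. Without acute DMSO replicate 5, however, the median was -0.01 and 38 of 71 were below 0, against 54.7% of all features. With the short gene covariate the median was -0.02. The smallest p belonged to mRpL55, a large-subunit protein specific to animal mitochondria, at 15 to 42.6 CPM with acute DMSO (median 17.3) and 12.8 to 20.8 CPM with acute mitoQ (median 16.0). Its log2 fold change was -0.33 (SE 0.17, adjusted p = 1.0), and the highest DMSO value was again acute DMSO replicate 5.

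The chronic drug comparisons share the 7 chronic DMSO libraries, among them replicate 7 with its testis markers. Without that library edgeR called 0 of 11452 features in either comparison, so that the background shares of calls given here rest on it. For chronic 2-AAPA edgeR called 0 of 71 members, against 2.13% of all features, with 0 at an unadjusted p under 0.05, against 10.1%. The median was -0.05, and 46 of 71 were below 0, against 53.2%. For chronic mitoQ it called 0 of 71, against 1.82% of all features, with 0 at an unadjusted p, against 8.29%. The median was -0.09, and 54 of 71 were below 0, against 56.5%, and DESeq2 and limma called 0 members in both comparisons, with 0 at an unadjusted p.

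The smallest p with chronic 2-AAPA belonged to mRpL35, at 15.2 to 25.6 CPM with DMSO (median 17.9) and 14.7 to 18.6 CPM with 2-AAPA (median 16.0), a log2 fold change of -0.18 (SE 0.12, adjusted p = 0.626 by edgeR). With chronic mitoQ it belonged to mRpL28, at 66.04 to 89.97 CPM with DMSO (median 75.1) and 60.7 to 76.4 CPM with mitoQ (median 67.3), a log2 fold change of -0.17 (SE 0.115, adjusted p = 0.794). The groups overlapped for both genes. The highest fitted value in either comparison, 0.38 for mRpL33 with chronic 2-AAPA (SE 0.40, adjusted p = 0.773), was set against a DMSO group that included the library with 6 reads.

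**Figure D5:**
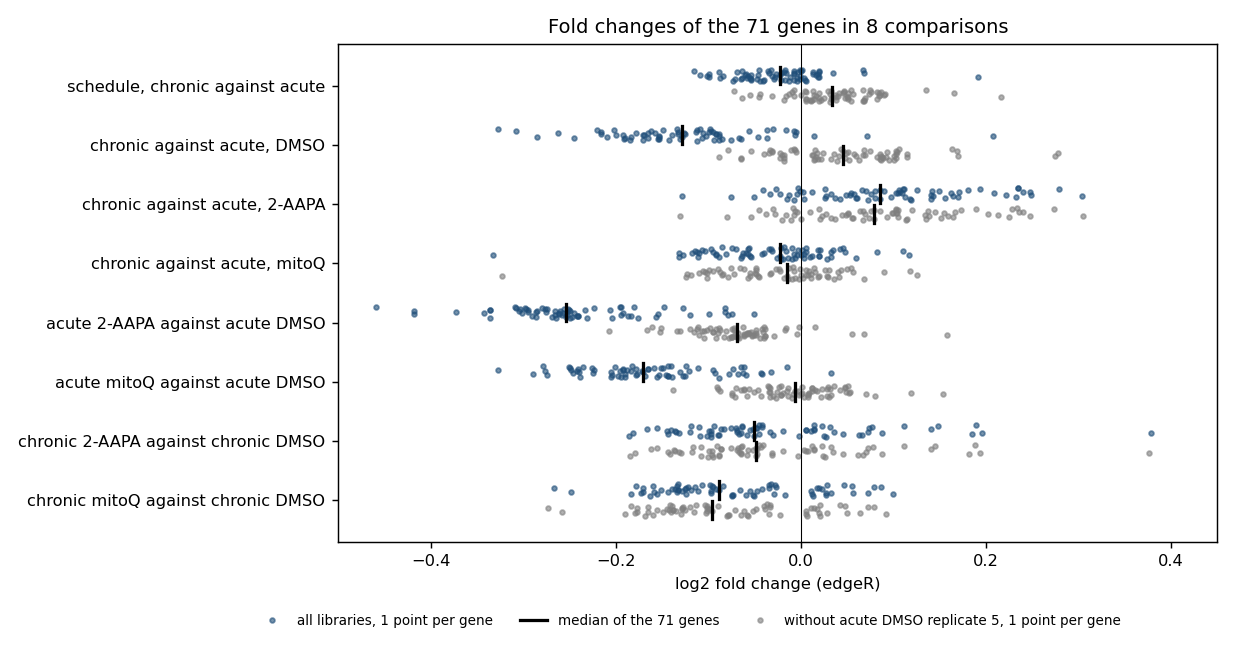
Log2 fold change of each of the 71 genes (edgeR) in 8 comparisons, with all libraries (blue) and without acute DMSO replicate 5 (grey), and black ticks at the medians. The comparisons that use acute DMSO shift toward 0 without that library, from a median of -0.25 to -0.07 for acute 2-AAPA, from -0.17 to -0.01 for acute mitoQ and from -0.13 to 0.045 for the DMSO arm.

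Members with known functional positions followed the rest of the family between schedules. mRpL2, at the peptidyl transferase center, gave a log2 fold change of -0.02 (SE 0.08), with 22 to 49.5 CPM in acute and 22 to 37.1 CPM in chronic libraries. mRpS29, known in mammals as the GTP-binding protein DAP3, which has been linked to apoptosis, gave -0.01 (SE 0.05), with 25.5 to 44.3 CPM and 26.1 to 35.9 CPM. The ranges overlapped for both. mRpL45 gave -0.02 (SE 0.05), mRpL12 gave -0.04 (SE 0.08), and mRpL44, a protein with the fold of ribonuclease III, gave -0.08 (SE 0.07), with adjusted p-values from 0.527 to 0.950 over these 5 genes by edgeR.

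Gene classes within the family gave similar medians. Between schedules the median log2 fold change was -0.03 for the 47 large-subunit genes, with 38 below 0, and -0.01 for the 24 small-subunit genes, with 16 below 0. The 41 genes with numbers of the bacterial series had a median of -0.03 and the 30 with higher numbers -0.02. The 29 genes without any exonic overlap had a median of -0.03, with mRpL37 as the called gene.

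With 8.64% of all features called as the background, the remaining parts of the mitochondrial translation system were counted from lists chosen by function. Between schedules edgeR called 0 of 10 translation factors, 0 of 15 aminoacyl-tRNA synthetases, 0 of 12 factors of mitochondrial DNA expression and 0 of 13 mitochondrially encoded mRNAs, with 0, 1, 1 and 3 at an unadjusted p under 0.05. Without acute DMSO replicate 5, Suv3, an RNA helicase of mitochondria, was called higher. tko gave a log2 fold change of 0.04 (SE 0.09, adjusted p = 0.859) and bonsai, the small-subunit protein S15, gave -0.05 (SE 0.08, adjusted p = 0.734). Both were highest in acute DMSO replicate 5, at 47.4 and 47.9 CPM against 15 to 29.9 CPM and 20.8 to 36.5 CPM elsewhere. Genes of cytosolic ribosomal proteins (0 of 81 called, 3 at an unadjusted p, median -0.10) and nuclear genes of the respiratory chain (0 of 68 called, 4 at an unadjusted p, median -0.045) had no call between schedules, and without acute DMSO replicate 5 their medians were -0.02 and 0.02.

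The RNAs of the mitochondrial ribosome itself are encoded in mitochondrial DNA, and their counts in poly-A libraries varied widely. The large ribosomal RNA, mt:lrRNA, was 274 to 1190 CPM in the 20 acute libraries. In chronic libraries it was 379 to 3110 CPM with DMSO, 439 to 782 CPM with mitoQ, and 482 to 830 CPM in 6 of the 7 libraries with 2-AAPA, while chronic 2-AAPA replicate 6 reached 36400 CPM. edgeR called it in the 2-AAPA arm (log2 fold change 3.33, SE 0.81, adjusted p = 0.0113), while the medians were 615 CPM after chronic and 545 CPM after acute 2-AAPA, and the fit without that library was not run for this gene, which was singled out after its values were seen. The family level in that library was -0.23, the lowest of its group. Among the mRNAs of mitochondrial DNA, mt:CoII and mt:CoIII, subunits of cytochrome c oxidase, were also called in the 2-AAPA arm (log2 fold changes 3.57 and 3.69), and both again with mt:ATPase8 (-1.84), a subunit of ATP synthase, between chronic 2-AAPA and chronic DMSO. Chronic 2-AAPA replicate 6 held 2020 CPM of mt:CoII and 3300 CPM of mt:CoIII, against at most 25 CPM and 42.5 CPM in the other libraries of its group. Chronic DMSO replicate 4 held 25.3 CPM of mt:ATPase8, against at most 1.59 CPM in the rest of its group. The fits without these 2 libraries were not run for these genes.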

How the data were processed

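Total RNA of head pools was sequenced from poly-A selected, directional libraries. The authors used version 3.10.1 of nf-core's RNA-Seq workflow with BDGP6 as reference, keeping reads with up to 500 alignments, counted reads per gene with featureCounts and per transposable element family with TEcount, and deposited raw, unnormalized counts in 1 table. Counting versions and strand settings are not given in the sources used here. Columns were matched to samples by their labels, and all 40 were used. The authors removed an outlying chronic DMSO sample, which the sources used here do not name, so the fits were also run without chronic DMSO replicate 7.

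Counts were filtered (filterByExpr, 6 groups), scaled by TMM and tested with edgeR (version 4.0.16, quasi-likelihood F test), with Benjamini-Hochberg adjustment over 11477 features and a threshold of 0.05. R 4.3.3, limma 3.58.1 and DESeq2 1.42.0 were used. Schedule was tested with drug as covariate, drug with schedule, their interaction, and 7 contrasts of groups. Levels are CPM on TMM-scaled library sizes (19952762 to 30697430, from totals of 24318573 to 30104079 counts), and deviations use log2 CPM with a prior count of 2. limma was run on log2(count + 2) after cyclic LOESS. The SE was derived from the F statistic. Coordinates come from the BDGP6 Ensembl annotation, whose merged exon lengths equal the lengths in the table for 71 of 71 members. Both count tests were tested on simulated data.

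The family was set by gene symbol, while the rule for naming members and the gene lists were chosen with earlier results of these data known. Named with values were members past the threshold between schedules (if fewer than 4 in a direction, those with the smallest p up to 4), the smallest p of each other test, the 3 highest and 3 lowest levels per length, and 5 members of known position. mRpL33, mRpS7, mRpS30, mRpL47, mRpS21, mRpL32 and mRpL23 were added after their values were seen, as were members called only with the short gene covariate. Alternatives were DESeq2 and its size factors, no filter, a replicate block, leaving out libraries, limma, and the ribosomal RNA share as covariate. Leaving out acute DMSO replicate 5, each library in turn, and a short gene covariate were added after the data were seen. List symbols that matched no feature were left out.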

Additional observations from a re-analysis of the deposited data

Results flagged for a closer look

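Within groups of 6 or 7 libraries, the highest and lowest value of the summed family level and of each of 26 members was checked. The check looked for a gap to the nearest library that Dixon's test at 95% would call too wide. The 26 were the members named by rule, with mRpL33, mRpS7, mRpS21, mRpL32 and mRpL23, which were added after their values were seen. mRpS30 and mRpL47 were not checked. For independent groups chance marks about 1 in 20. The members moved together and some were chosen by their values, so the share marked here cannot be held against that rate. In all, 37 of 162 groups were marked, 22 of them through 1 library, acute DMSO replicate 5. There the summed family level was 3210 CPM against 1570 to 1980 CPM in the other 6 libraries of its group.

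In the same library 21 members were marked as far above the rest of their group. Those of the large subunit were mRpL28 at 119.0 CPM, mRpL53 at 92.6 CPM, mRpL12 at 55.5 CPM, mRpL23 at 52.1 CPM, mRpL2 at 49.5 CPM, mRpL37 at 47.6 CPM, mRpL55 at 42.6 CPM, mRpL44 at 42.4 CPM, mRpL46 at 38.6 CPM, mRpL19 at 32.3 CPM, mRpL35 at 30.9 CPM, mRpL21 at 30.7 CPM and mRpL32 at 25.9 CPM. Those of the small subunit were mRpS7 at 56.8 CPM, mRpS21 at 53.1 CPM, mRpS31 at 45.5 CPM, mRpS11 at 42.1 CPM, mRpS14 at 41.0 CPM, mRpS26 at 39.2 CPM, mRpS6 at 27.0 CPM and mRpS18B at 18.6 CPM.

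The other 15 marks came from 5 libraries. In chronic 2-AAPA replicate 5, mRpS14 (31.0 CPM), mRpS31 (38.2 CPM), mRpL28 (106.0 CPM), mRpL19 (22.6 CPM) and mRpL2 (37.1 CPM) were high. In chronic DMSO replicate 4, mRpS14 (27.0 CPM) and mRpL35 (25.6 CPM) were high, while mRpS11 (13.6 CPM against 26 to 32 CPM) and mRpL32 (4.77 CPM against 11.1 to 15 CPM) were low. In acute 2-AAPA replicate 1, mRpS14 (23.8 CPM) and mRpL55 (25.9 CPM) were high. In acute mitoQ replicate 5, mRpL21 (24.0 CPM) and mRpS21 (32.2 CPM) were high, as were mRpS11 (31.1 CPM) and mRpL23 (30.5 CPM) in chronic mitoQ replicate 5.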

How the results depend on the processing

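Of 168 recomputed counts of members called, 147 stayed within 1.5 times the reported count. Between schedules the count fell from 1 to 0 with limma and rose to 9 with the short gene covariate, which also gave 2 in the 2-AAPA arm. It ranged from 0 to 1 when single libraries were left out. The call of mRpL37 was lost without acute DMSO replicates 1, 4, 6 or 7, acute 2-AAPA replicates 3, 4, 5 or 6, acute mitoQ replicates 2, 5 or 6, chronic DMSO replicates 3 or 7, chronic 2-AAPA replicates 1, 2 or 4, or chronic mitoQ replicates 1 or 2. The cause of these changes was not tested. Of 360 recomputed log2 fold changes of named members, 307 kept direction and side of the threshold and 48, all between schedules and in 11 genes with small differences, changed sign. With the short gene covariate the values were 0.037 for mRpL12, 0.043 for mRpL19, 0.06 for mRpL2, 0.028 for mRpL21, 0.016 for mRpL53, 0.109 for mRpL55, 0.031 for mRpS18B, 0.035 for mRpS29, 0.058 for mRpS31 and 0.004 for mRpS9. With DESeq2 and without acute DMSO replicate 5 they were 0.024 for mRpL12, 0.027 for mRpL19, 0.043 for mRpL2, 0.011 for mRpL21, 0.08 for mRpL55, 0.026 for mRpS18B, 0.034 for mRpS29 and 0.051 for mRpS31. The other tools and settings turned mRpS31 (0.01 with DESeq2 and with its size factors, 0.003 without a filter, 0.002 with the replicate block, 0.007 with limma, 0.013 with the ribosomal RNA share), mRpS29 (0.002 with DESeq2 size factors, 0.003 with DESeq2), mRpL55 (0.033 with limma, 0.017 with the ribosomal RNA share) and mRpL28 (-0.004 with limma). In the fits without acute DMSO replicate 5, chronic DMSO replicate 7, both, or acute 2-AAPA replicate 6, values ran from -0.061 to 0.024 for mRpL12, -0.058 to 0.022 for mRpL19, -0.034 to 0.042 for mRpL2, -0.065 to 0.006 for mRpL21, -0.006 to 0.056 for mRpL28, -0.041 to 0.074 for mRpL55, -0.04 to 0.023 for mRpS18B, -0.019 to 0.03 for mRpS29 and -0.014 to 0.049 for mRpS31. With a replicate block the count stayed at 1 between schedules and 0 elsewhere. Of 96 same-numbered pairs, 34 correlated above 0.1 and r ranged from -0.574 to 0.623. Pairs with different numbers were not compared, so whether shared numbers pair the samples cannot be told from these values. Totals of 24318573 to 30104079 counts gave every member at least 6 reads in each library.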
